A study of Mus musculus with 31 samples.

Results

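A set of 10 genes of fatty acid synthesis and desaturation were followed in mouse lung after an intravenous injection of oleic acid, an agent that injures the lung's capillary bed within hours. The genes were Acly, Me1, Acaca, Fasn, Thrsp, Elovl6, Scd1, Scd2, Fads2 and Srebf1, and a probe counted as a member when its symbol in the scanner files, or the current symbol of its transcript accession, was 1 of these 10 names. All 10 were measured, by 17 probes, among 29310 features tested, of which 16673 carried a current gene symbol. Each array read the whole-lung RNA of 1 female C57BL/6 mouse aged 6 weeks. Mice received 200 µl into the tail vein under anaesthesia. In the control groups this was physiological serum (called saline here), and in the others it held oleic acid at 1.2 µl per g of body weight. Lungs were taken at 1, 1.5, 3, 4, 18 or 24 h. Of 31 arrays, 2 were left out because their spike-in slopes, which should lie near 1, were 1.66 (replicate 3 of oleic acid at 1.5 h) and 0.751 (replicate 2 at 3 h), against 0.937 to 1.06 on the other 29. The groups used held 3 saline and 3 oleic acid arrays at 1 h, 2 and 2 at 1.5 h, 2 and 2 at 3 h, and 2 saline and 3 oleic acid arrays at 4, 18 and 24 h.

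Cells build palmitate from acetyl-CoA. ATP citrate lyase (Acly) supplies the acetyl-CoA, malic enzyme (Me1) supplies NADPH, acetyl-CoA carboxylase (Acaca) makes malonyl-CoA and fatty acid synthase (Fasn) joins the units, while Thrsp (Spot 14) is a small protein known to promote this pathway in liver, fat and mammary gland. Elovl6 lengthens palmitate to stearate, the stearoyl-CoA desaturases Scd1 and Scd2 turn stearate into oleate, the very fatty acid injected here, and Fads2 starts the desaturation of essential fatty acids. Srebf1 encodes SREBP-1, the transcription factor that drives most of these genes and whose processing polyunsaturated fatty acids restrain. In the lung, alveolar type 2 cells use the pathway for surfactant lipids, and fat cells next to the airways and in the mediastinum express it strongly.

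Each gene was read by the probe of that gene with the highest mean. The parts of 5 of these 60-base probes printed below are the first 30 bases, 5′ to 3′ in lower case, for the 3 genes with the widest swings or clearest separation at 4 h (Thrsp, Elovl6, Scd1), for Fasn, and for Scd2, which differs from its paralogue Scd1 in pattern. They show which transcript stretch stands behind each value.
Thrsp: aaagcagggatgctgtatctacctcacacg
Elovl6: cctaggccctaaacccatattcagagggaa
Fasn: attggtagggtacaaaggtgttcagaggat
Scd1: actcctgggctaagtatctgacagtctcac
Scd2: acatttggggatcctctgcagaggagtatt
Per the file headers these probes lie, in build mm9, at chr7:104561649-104561708 (minus strand, Thrsp), chr3:129341248-129341307 (plus strand, Elovl6), chr11:120667666-120667725 (minus strand, Fasn), chr19:44469387-44469446 (minus strand, Scd1) and chr19:44381024-44381083 (plus strand, Scd2). An exon annotation of that build was not used here. No probe of the array outside the gene itself shared 30 bases with any of the 17 probes, the probes of the paralogues Scd1 and Scd2 included. Among the 17 only 1 pair overlapped: 2 Acaca probes shared a run of 55 bases.

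The promoters of Fasn and Thrsp are shown as examples from the genes that varied together across the arrays (below). Each is the 250 bases before the gene's start in RefSeq (GRCm38.p6), 5′ to 3′ along the gene. Capitals mark CCAAT, the NF-Y box, on either strand (ATTGG on the other).
Fasn, chr11:120824548-120824797, minus strand: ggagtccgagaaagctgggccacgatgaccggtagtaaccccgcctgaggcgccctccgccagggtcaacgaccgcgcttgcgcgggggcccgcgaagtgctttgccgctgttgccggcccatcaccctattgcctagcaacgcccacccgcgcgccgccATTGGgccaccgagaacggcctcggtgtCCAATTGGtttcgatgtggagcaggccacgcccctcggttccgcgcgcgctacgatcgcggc
Thrsp, chr7:97417551-97417800, minus strand: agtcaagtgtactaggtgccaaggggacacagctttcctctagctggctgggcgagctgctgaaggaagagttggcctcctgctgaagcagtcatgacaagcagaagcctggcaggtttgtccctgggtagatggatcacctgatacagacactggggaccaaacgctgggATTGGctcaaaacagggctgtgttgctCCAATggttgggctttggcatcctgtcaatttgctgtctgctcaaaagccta
The Fasn window held 3 matches, 2 of them overlapping on opposite strands, and the Thrsp window held 2. Elovl6 varied more closely with Thrsp (r = 0.91) and with Fasn (0.82) than these 2 genes did with each other (0.77). The Elovl6 window held 0 CCAAT matches, as did those of Acaca and Acly. The RefSeq table gave 11 such windows for 8 of the 10 genes (all but Scd1 and Scd2), and 5 of the 11 held CCAAT against 33.8% of 32851 windows of the same length. GGGCGG, the Sp1 box, was in 5 of the 11 against 32.7%. The sterol element TCACNCCAC and the E-box CACGTG were in 0 of the 11, against 1.05% and 6.02% of all windows. Both strands were searched, and a match is a description of letters only.

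Values are levels on a log2 scale: the processed signal of a probe minus the 75th percentile of its array. They compare arrays for 1 gene and not genes with each other. All 10 probes used lay well above background on all 29 arrays. Surfactant, alveolar type 1 and endothelial markers (Sftpc, Sftpb, Abca3, Ager, Pecam1, Cdh5) and the macrophage receptor Marco did so too, as did Alb, Apoa1, Myh6 and Adipoq, markers of liver, heart muscle and fat. On 5 of the 29 arrays 72.2% to 82.4% of spots lay well above background, against 51.2% to 66.2% on the rest. The arrays sat on 4 slides. All 1 h arrays shared slide 1, all 4 h arrays slide 3 and all 24 h arrays slide 4. The saline arrays of 1.5 h were split over slides 1 and 2, and the oleic acid arrays of 3 h over slides 2 and 3. At 18 h saline lay on slide 3 and oleic acid on slide 4, so at that time treatment and slide cannot be told apart.

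The genes differed widely in how far their levels ranged. Thrsp spanned 4.77 log2 units over the 29 arrays, a 27.2-fold range, and its standard deviation within groups, 0.92, was larger than that of 89.3% of all features. Elovl6 ranged 6.39-fold. The other 8 ranged between 1.63-fold (Scd2) and 2.87-fold (Fads2), and the within-group standard deviation of 7 of them lay below the median of all features, 0.339, with Fads2 at it. On one and the same array, oleic acid 4 h replicate 3, 7 of the 10 had their highest level: Fasn, Acaca, Acly, Scd1, Elovl6, Thrsp and Me1. Of these, 4 (Fasn, Acly, Scd1 and Thrsp) had their lowest level on oleic acid 18 h replicate 1.

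**Figure D1:**
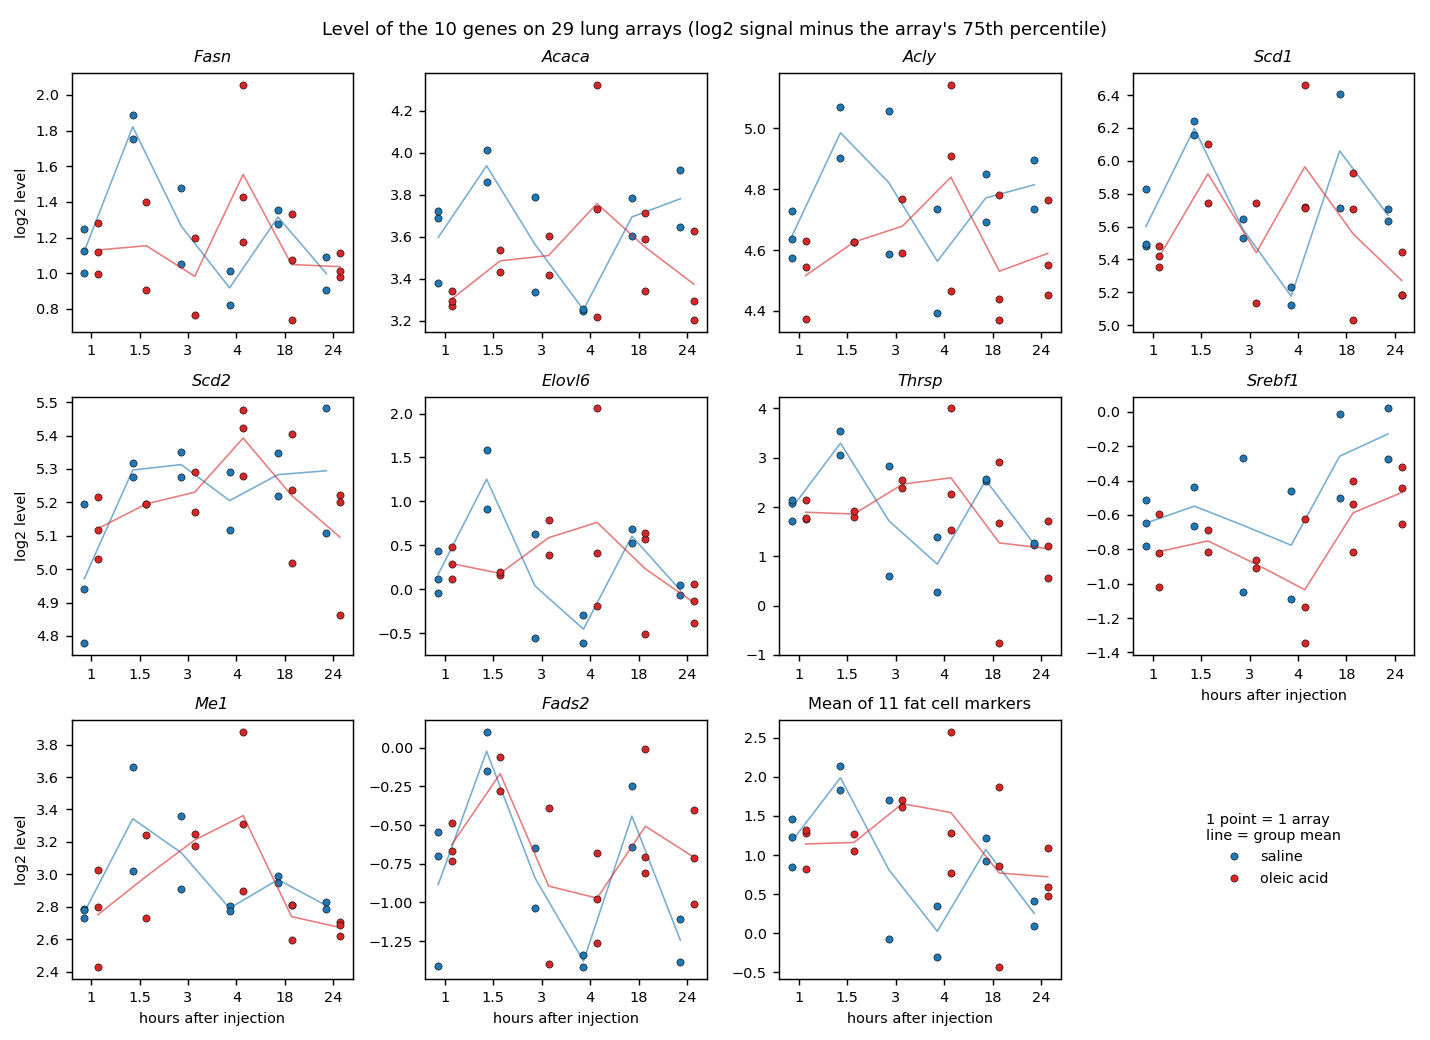
Level of each gene (log2 signal minus the array's 75th percentile) on every array against hours after injection, with the mean of 11 fat cell markers in the last panel. Points are arrays and lines join group means. Saline is high at 1.5 h and low at 4 h in most panels, and oleic acid 4 h replicate 3 is the top point for 7 genes.

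None of the 10 genes passed the test of oleic acid against saline at any time (limma, Benjamini-Hochberg adjusted p under 0.05 over all features), and few features of any kind did. At 1 h 0 of 10 passed against 0% of all features tested, at 1.5 h 0 of 10 against 0.00341%, and at 3 h 0 of 10 against 0%. At 4 h 0 of 10 passed against 0.00341%, at 18 h 0 of 10 against 0.0239% and at 24 h 0 of 10 against 0.0136%. The members' unadjusted 95% interval excluded 0 for 1 gene at 1.5 h (1.62% of all features did) and for 6 genes at 4 h (7.41%). It did so for 0 genes at 1 h (4.04%), 3 h (6.35%), 18 h (2.43%) and 24 h (4.56%). The values below are therefore descriptions of groups of 2 or 3 mice.

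At 1.5 h all 10 genes were lower after oleic acid than after saline, with a median difference of -0.36, while the median over all features was -0.03. For 8 genes every oleic acid array lay below every saline array; over all features this held for 15.2%. When each of the 4 arrays was left out in turn, all 10 differences stayed below 0. For the 8 genes apart this was fixed beforehand, so only Me1 and Fads2 could have turned. Centring each array on its median instead of its 75th percentile moved the median of all features to 0.26, and 4 of the 10 differences were then above 0. Relative to that median the 10 genes still lay low, with their own median at -0.07.

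Thrsp had levels of 3.06 and 3.54 in saline at 1.5 h and of 1.80 and 1.92 after oleic acid, a difference of -1.44 (95% interval -3.27 to 0.39). Elovl6 had 0.92 and 1.59 in saline and 0.17 and 0.19 after oleic acid, a difference of -1.07 (-2.15 to 0.01). In both genes the saline arrays were the higher ones and the groups did not overlap. Fasn had levels of 1.75 and 1.89 in saline and 1.40 and 0.91 after oleic acid, and its difference of -0.67 (-1.19 to -0.14) was the only one whose interval excluded 0 (adjusted p = 1.00 in limma). Without oleic acid replicate 2 it was -0.42, and under median centring -0.38. Acaca stood at 3.86 and 4.01 against 3.54 and 3.43, and Acly at 4.90 and 5.07 against 4.63 and 4.63. Scd1 was at 6.16 and 6.24 in saline and at 6.10 and 5.74 after oleic acid, a smaller separation than in Fasn. Scd2 and Srebf1 were also apart, by -0.10 and -0.20, and the groups overlapped for Me1 and Fads2. The saline arrays came from 2 slides, and slide 2 held saline replicate 2 and both oleic acid arrays. On slide 2 the 10 differences were all below 0, between -1.68 (Thrsp) and -0.02. These are the same values as without saline replicate 1 and not a further check.

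The saline mice of 1.5 h were themselves at the top of the saline series. Their mean Thrsp level, 3.30 ± 0.34 (SD, n = 2), was the highest of the 12 group means, followed by oleic acid at 4 h (2.59 ± 1.27, n = 3), saline at 18 h (2.54 ± 0.02, n = 2) and oleic acid at 3 h (2.46 ± 0.12, n = 2), and these neighbours differed by less than their spread. Fasn (1.82 ± 0.09), Scd1 (6.20 ± 0.06), Acly (4.98 ± 0.12), Acaca, Elovl6 and Fads2 also had their highest group mean in saline at 1.5 h. Me1, Scd2 and Srebf1 did not.

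At 4 h the direction was the opposite. Of the 10 genes 9 were higher after oleic acid, by a median of 0.54, with Srebf1 the exception at -0.26, while the median over all features was -0.08. For 6 genes (Fasn, Scd1, Elovl6, Thrsp, Me1 and Fads2) every oleic acid array lay above every saline array, against 8.37% of all features in that direction. The count of 9 was the same under the other background correction, the 2 other scalings and the authors' deposited table. All 5 arrays of this time lay on slide 3.

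Thrsp had levels of 1.40 and 0.28 in saline at 4 h and of 1.53, 2.26 and 4.00 after oleic acid, a difference of 1.75 (0.08 to 3.42), or 3.37-fold. Elovl6, the elongase, had -0.29 and -0.62 in saline and -0.19, 0.42 and 2.06 after oleic acid, a difference of 1.22 (0.23 to 2.20), or 2.32-fold. In both, the third oleic acid array stood well above replicates 1 and 2, and the first lay just above saline. Scd1 was at 5.12 and 5.23 in saline and at 5.72, 5.71 and 6.46 after oleic acid, a difference of 0.79 (0.23 to 1.35), or 1.73-fold. This was the member with the smallest unadjusted p at 4 h, 0.00803 in limma (adjusted p = 0.672). Fasn was at 0.82 and 1.01 in saline and at 1.18, 1.43 and 2.06 after oleic acid, a difference of 0.64 (0.16 to 1.11), or 1.55-fold. Me1 was at 2.81 and 2.78 against 2.90, 3.31 and 3.88, a difference of 0.57 (0.07 to 1.07). Fads2 was at -1.42 and -1.34 against -0.68, -1.26 and -0.98, apart but with an interval that included 0 (-0.23 to 1.04).

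Acaca was at 3.25 and 3.26 in saline at 4 h and at 3.22, 3.73 and 4.32 after oleic acid. Its groups overlapped at the lowest array, and the difference was 0.51 (0.02 to 0.99). Acly (0.28) and Scd2 (0.19) also overlapped. Without oleic acid 4 h replicate 3 the median of the 10 differences was 0.35 rather than 0.54. The differences then were 1.05 for Thrsp, 0.57 for Elovl6, 0.54 for Scd1, 0.39 for Fasn, 0.31 for Me1 and 0.22 for Acaca. Then 9 genes were higher and 6 apart, against 11.2% of all features. The 6 had to stay apart, because leaving out an array cannot make separate groups overlap, so their count is no check.

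**Figure D2:**
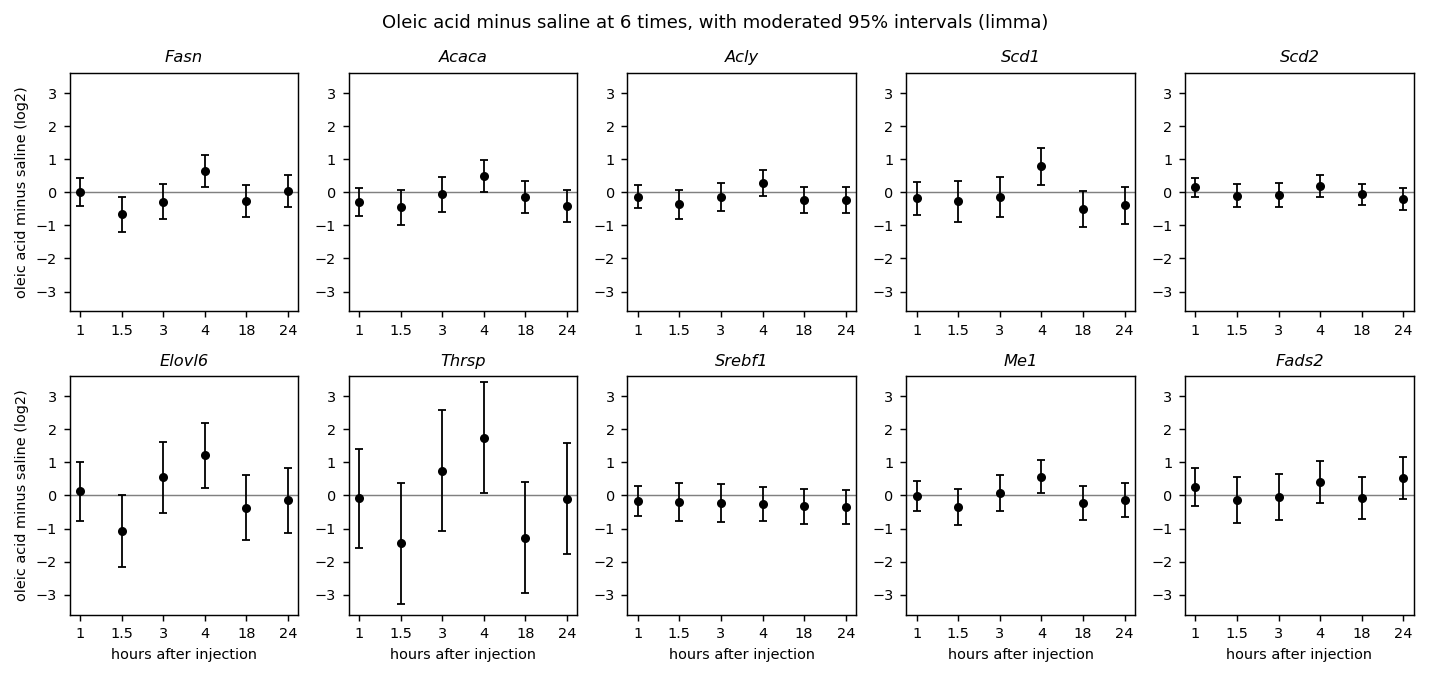
Difference between oleic acid and saline (log2) at each of 6 times for the 10 genes; points are differences of group means and bars are moderated 95% intervals. Most genes lie below 0 at 1.5 h and above 0 at 4 h, and Srebf1 lies slightly below 0 at all 6 times.

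Whether the 6 differences of a gene were unequal was tested by an F test added after the data had been seen. None of the 10 passed against 0.00682% of all features; the unadjusted p was under 0.05 for Fasn (0.0225) and Scd1 (0.0353), as for 2.11% of features, with adjusted p = 1.00 for both in limma.

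At the other times separations were fewer. At 1 h the groups did not overlap for 2 genes, Acaca (3.69, 3.72 and 3.38 in saline, 3.27, 3.34 and 3.30 after oleic acid) and Scd1 (5.48, 5.49 and 5.83 against 5.42, 5.35 and 5.48), both lower after oleic acid, as were 1.49% of all features. The closest Scd1 arrays were equal at this rounding. At 3 h all 10 overlapped, and Thrsp in saline stood at 0.60 on one array and 2.84 on the other. At 18 h all 10 differences were below 0, by a median of -0.25, with Me1 apart (lower; 6.67% of all features were). Thrsp had levels of 2.53 and 2.56 in saline at 18 h and of -0.76, 1.67 and 2.91 after oleic acid, so 1 array of oleic acid lay above both saline arrays. With arrays centred on their medians the median of all features at 18 h moved to 0.28, and 6 of the 10 differences lay above 0.

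At 24 h 4 genes were lower without overlap, against 15.2% of all features. They were Acaca (3.92 and 3.65 in saline; 3.29, 3.63 and 3.20 after oleic acid), Scd1 (5.70 and 5.63; 5.18, 5.19 and 5.45), Srebf1 (0.02 and -0.28; -0.32, -0.44 and -0.65) and Me1 (2.83 and 2.79; 2.71, 2.62 and 2.69). Fads2 was the one higher without overlap (-1.38 and -1.10 against -0.71, -1.01 and -0.40), as were 6.11% of features. Other probes of Me1 and Fads2 differed in sign here. For Me1 they gave 0.07 and 0.05 against -0.13 for the probe used, and for Fads2 -0.08 against 0.54. The median of the 10 differences, -0.17, was close to that of all features, -0.12. Under median centring 5 of the 10 lay above 0.

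Averaged over 1 to 4 h, 0 of 10 genes passed (0.00341% of all features did) and 0 intervals excluded 0 (7.55%), with differences from -0.21 (Srebf1) to 0.24 (Thrsp). Averaged over 18 and 24 h, 0 of 10 passed (0.0171%). Scd1 was lower by -0.45 (-0.84 to -0.06; adjusted p = 0.944 in limma), the only member whose interval excluded 0 (3.16% of all features). Without saline 18 h replicate 2 it was -0.28, and under median centring -0.21. The change in the oleic acid difference from the early to the late times passed for 0 of 10 (0% of all features). Scd1 had the value -0.50 (-0.98 to -0.01), or -0.32 without saline 18 h replicate 2. It was the 1 member whose interval excluded 0 (1.47% of all features). In the F test of any difference over the 6 times 0 of 10 passed (0.0171%).

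Srebf1 is the regulator of the set. It lay lower after oleic acid at all 6 times, by -0.16 to -0.34, with every interval including 0. The sign of its difference was not stable. It turned under 1 setting at 1.5 h (to 0.09), and with 1 array left out at 3 h (0.16) and at 4 h (0.05). At 1.5 h its groups were apart, as for 7 of the other genes. Its level was higher at the late times in both treatments. In saline 18 and 24 h exceeded 1 to 4 h by 0.46 (0.12 to 0.81; adjusted p = 0.155), and after oleic acid by 0.34 (0.05 to 0.64; adjusted p = 0.183), both in limma. For these 2 time comparisons 0 of 10 members passed, while 2.77% and 4.96% of all features did. The interval excluded 0 for 1 member in saline (14.9% of all features) and 3 after oleic acid (19.2%). The levels of Srebf1 in saline at 18 h, -0.01 and -0.50, overlapped with those at 4 h, -1.09 and -0.46, and those at 24 h, 0.02 and -0.28, lay above them. Under median centring the late minus early value in saline was 0.19, and it was 0.31 when computed from the authors' deposited table. After oleic acid all late arrays lay on slide 4 and all early ones on slides 1 to 3, so time and slide cannot be told apart. In saline 18 h lay on slide 3 and 24 h on slide 4, and a slide term could not be fitted for late against early either.

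Between 4 and 18 h each treatment was followed on its own. In saline all 10 genes were higher at 18 h than at 4 h, by a median of 0.48 (all features, -0.04), and both groups lay on slide 3. Under median centring, which moved the median of all features to -0.50, 5 of the 10 were above 0 with a median of 0.01. Scd1 went from 5.12 and 5.23 to 5.71 and 6.41, a difference of 0.88 (0.27 to 1.49; adjusted p = 0.0808 in limma), and Fads2 from -1.42 and -1.34 to -0.64 and -0.25, a difference of 0.94 (0.24 to 1.64; adjusted p = 0.106). Thrsp was higher by 1.70 and Elovl6 by 1.06, with intervals that included 0. None of the 10 passed, against 5.4% of all features, and 2 intervals excluded 0, against 22.2%. The fat cell markers described below were higher at 18 h in 9 of 11 cases, by a median of 1.06, and their part in the result was not tested. Without saline 18 h replicate 1 Scd1 passed at 1.23 (adjusted p = 0.0498 in limma), and without replicate 2 its value was 0.54 (adjusted p = 0.580 in limma).

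After oleic acid 8 of the 10 were lower at 18 h than at 4 h, by a median of -0.36 (all features, -0.03). The interval excluded 0 for 2 of the 10, against 19.1% of all features. Me1 went from 2.90, 3.31 and 3.88 to 2.60, 2.81 and 2.81, a difference of -0.62 (-1.07 to -0.17; adjusted p = 0.110 in limma). Fasn was lower by -0.51 (-0.93 to -0.08), and Srebf1 and Fads2 were the 2 that were higher, by 0.45 and 0.46. The fat cell markers were lower in 8 of 11 cases, by a median of -1.21. None of the 10 passed, against 3.92% of all features, and without oleic acid 4 h replicate 1 Me1 passed at -0.85 (adjusted p = 0.0435 in limma). Without oleic acid 4 h replicate 3 the values were -0.36 for Me1 and -0.25 for Fasn, and for Acaca and Elovl6 leaving out 1 array turned the sign. Here the 4 h arrays lay on slide 3 and the 18 h arrays on slide 4, so time and slide cannot be told apart. Whether the saline and oleic acid changes differ from each other was not tested. From 18 to 24 h 0 of 10 passed in saline (0.0102%) and 0 of 10 after oleic acid (0.0102%). Fads2 in saline was lower by -0.80 (-1.50 to -0.10), with 18 h on slide 3 and 24 h on slide 4. It was the 1 member whose interval excluded 0 there, against 10.3% of all features. In the F tests over all 6 times 0 of 10 passed in saline (4.29%) and 0 of 10 after oleic acid (4.41%).

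A set of 7 genes varied together from mouse to mouse. Over the 29 arrays the 21 pairs among Fasn, Acaca, Acly, Scd1, Elovl6, Thrsp and Me1 had Pearson correlations from 0.57 to 0.91, with a median of 0.72. These 7 were picked after the values had been seen, so the range is a description. With group means subtracted the pairs ran from 0.34 to 0.88. Without the 2 arrays farthest from the median of the first gene the lowest were Fasn with Me1, at 0.26, and Acaca with Me1, at 0.31. The highest was Elovl6 with Thrsp: r = 0.91 and rho = 0.93 (n = 29, permutation p = 1e-05 for each, the smallest the permutations can give), r = 0.90 without the 2 arrays farthest from the median of Elovl6, and 0.88 to 0.97 within each of the 4 slides. Of all 45 pairs of the 10 genes, 23 had a permutation p under 0.05 for r and 27 for rho after Benjamini-Hochberg adjustment over the 45. The share among pairs of other features was not computed, so the counts are not a trait of this set. Permutations here and below took no account of group or slide. Srebf1 correlated with the 7 at -0.20 to 0.33 over all arrays and at -0.07 to 0.53 with group means subtracted. Its closest were Acaca (r = 0.33, rho = 0.46, permutation p adjusted over the 45 of 0.130 and 0.0254; r = 0.67 without the 2 farthest arrays; 0.11 to 0.80 within slides) and Acly (r = 0.32; 0.57 without the 2 farthest arrays). Scd2 correlated with the 7 at 0.12 to 0.49 and Fads2 at -0.02 to 0.55. All points share the scaling of their array.

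**Figure D3:**
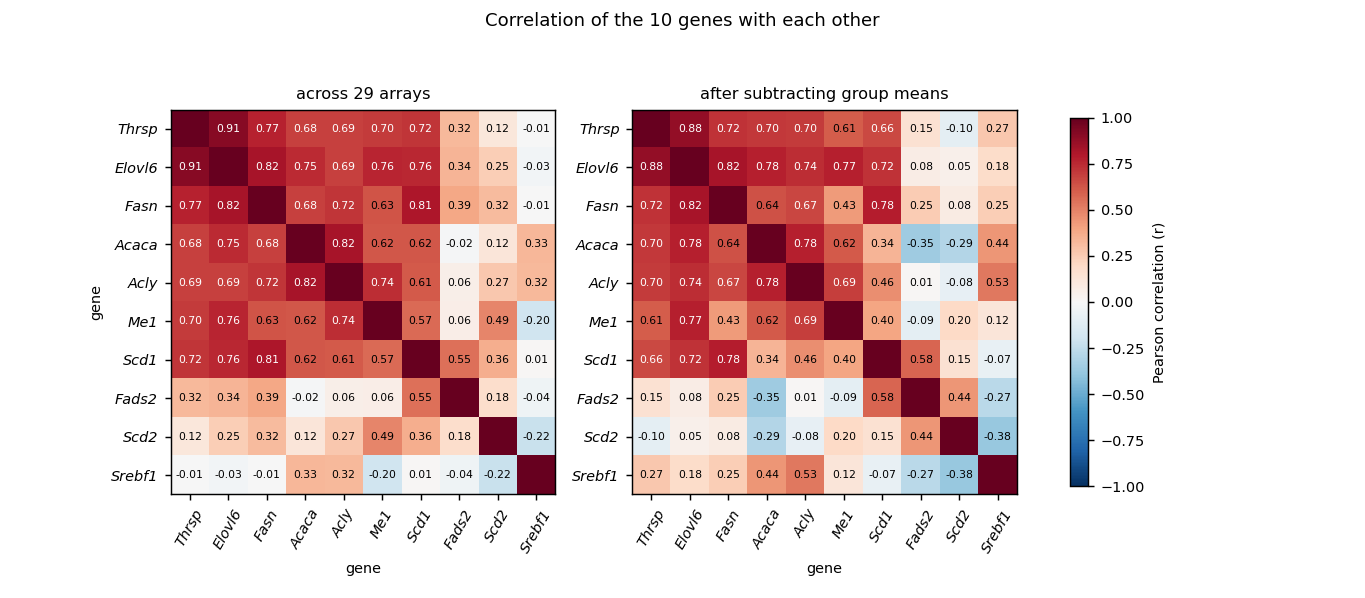
Pearson correlation between each pair of the 10 genes over 29 arrays (left) and after the mean of each of the 12 groups was subtracted (right); red is positive, blue negative. The block of 7 genes from Thrsp to Scd1 is red on both sides, and Scd2, Fads2 and Srebf1 are paler.

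The 7 genes varied with markers of fat cells. Of 12 fat cell markers 11 were measured, and 10 lay well above background on all 29 arrays: Adipoq, Plin1, Cidec, Cfd, Retn, Pck1, Car3, Cidea, Slc36a2 and Plin5. Ucp1 did so on 19 arrays and ranged from -6.93 to 2.17, and its values near background also enter the marker mean used below. Lep, the defining hormone of white fat, did so on 2 of 29, so it was not kept. Cidec is also on the alveolar macrophage list, and none of the 11 is a member. The mean of the 11 markers correlated with Thrsp at r = 0.94 and rho = 0.92, with Elovl6 at r = 0.88 and rho = 0.87, and with Fasn at r = 0.73 and rho = 0.68 (n = 29, permutation p adjusted over 20 correlations 0.0001, 0.0001 and 0.0002 for r; 0.0001, 0.0001 and 0.0006 for rho). Without the 2 arrays farthest from the median of the marker mean, r was 0.92, 0.85 and 0.62. With group means subtracted it was 0.97 for Thrsp and 0.87 for Elovl6, and within the 4 slides it ran from 0.87 to 0.97 for Thrsp and from 0.79 to 0.94 for Elovl6.

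Me1 (r = 0.64), Acaca (0.61), Scd1 (0.60) and Acly (0.58) followed the fat markers less closely, and Fads2 (0.38), Scd2 (0.06) and Srebf1 (-0.08) had the lowest values. For Acaca, Acly, Scd1 and Me1 r fell to between 0.43 and 0.50 without the 2 farthest arrays. With the mean of 12 alveolar type 2 cell markers, the 7 genes had r between -0.38 and 0.27. The lowest was Elovl6 (r = -0.38, rho = -0.43, adjusted permutation p 0.0764 and 0.0476; r = -0.48 without the 2 farthest arrays). Srebf1 had r = 0.45 and Fads2 r = -0.52 with that mean (rho 0.35 and -0.41), with permutation p for r adjusted over the 20 of 0.0312 and 0.0118 and for rho of 0.109 and 0.0615, and r was 0.28 and -0.44 without the 2 farthest arrays.

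**Figure D4:**
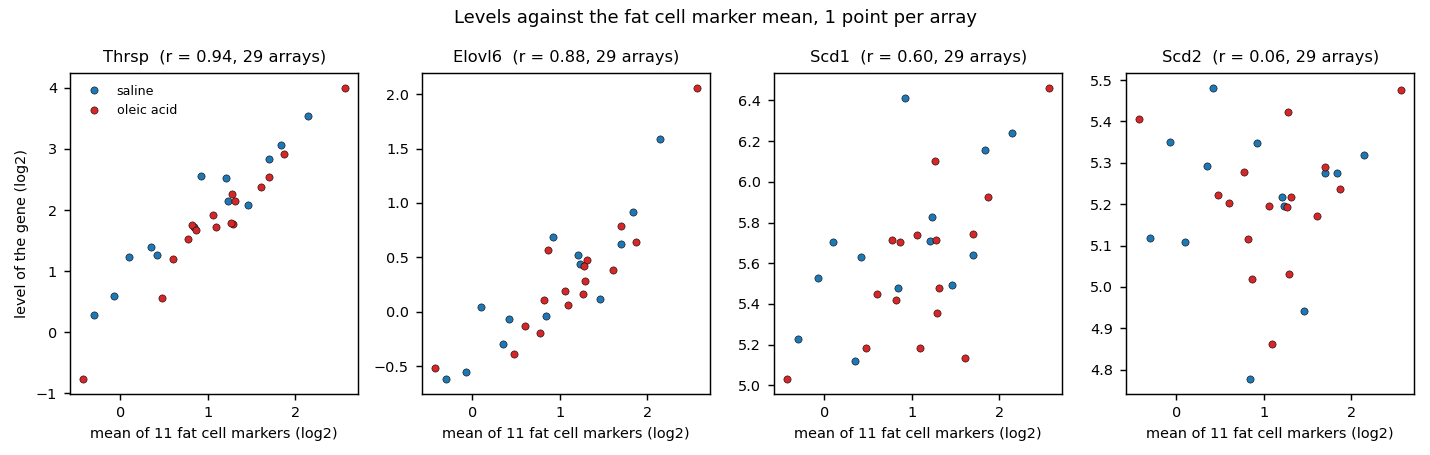
Level of Thrsp, Elovl6, Scd1 and Scd2 against the mean of 11 fat cell markers, both in log2 units, with 1 point per array coloured by treatment. Thrsp (r = 0.94) and Elovl6 (0.88) follow the markers closely, Scd1 (0.60) less so and Scd2 (0.06) does not.

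The fat markers lay on the same side of saline as most of the genes at 1.5, 4 and 18 h and on the other side at 1, 3 and 24 h. At 4 h all 11 were higher after oleic acid, by a median of 1.79, with Adipoq, the adiponectin gene, at 2.54 (0.98 to 4.10; adjusted p = 0.642 in limma) and Retn at 1.89. Their mean level was 0.35 and -0.30 in saline and 0.77, 1.28 and 2.57 after oleic acid, the highest value again on replicate 3, and the log2 of their summed signal was 4.48 to 5.21 in saline and 5.43 to 7.60 after oleic acid. At 1.5 h 1 of 11 was higher and 10 were lower after oleic acid, by a median of -0.69. Their mean was then 1.83 and 2.14 in saline and 1.27 and 1.06 after oleic acid, and the log2 of the summed signal 6.55 to 6.62 against 5.53 to 5.94. At 3 h 10 of 11 were higher (median 0.69), while 7 of the 10 genes were lower, and at 24 h 10 of 11 were higher (0.56), while 8 of the 10 genes were lower. At 1 h 7 of 11 (0.07) and at 18 h 4 of 11 (-0.29) were higher. None of the 11 passed at any of the 6 times. Without oleic acid 4 h replicate 3 the median of the markers at 4 h was 1.13. At 4 h Ucp1, counted among the 11, was not well above background in saline or on oleic acid replicates 1 and 2. The part of fat tissue in the differences of the 10 genes was not tested, and in whole-lung RNA fewer cells of a type and less RNA per cell cannot be told apart.

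Other cell type lists at these 2 times were as follows, with 0 genes of any list passing. At 4 h 2 of 12 alveolar type 2 markers lay above 0 (median -0.21), 0 of 6 alveolar type 1 markers (-0.23), 2 of 7 endothelial (-0.41), 7 of 8 alveolar macrophage (0.23), 0 of 6 neutrophil (-0.67), 7 of 9 heart muscle (0.07) and 6 of 6 liver markers (1.41). At 1.5 h the medians were -0.01, -0.12, -0.08, -0.03, 0.41, -0.63 and 1.03 in the same order. Heart muscle markers, like the fat markers, were lower in 8 of 9 cases after oleic acid at 1.5 h, with Tnni3, a troponin of heart muscle, at -0.87 (-1.43 to -0.30), but not at 4 h. Their part in the result was not tested.

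Genes whose levels were most like each member over the 29 arrays, among 16454 other named genes, were taken as the 3 with the highest Pearson correlation. For Thrsp these were Tmem45b (0.91), Retn (0.89) and Plin1 (0.88), and for Elovl6 Retn (0.90), A530016L24Rik (0.88) and Gpd1 (0.88). Retn encodes resistin and Plin1 perilipin, which coats lipid droplets. For Fasn they were Retn (0.80), Fabp4 (0.76) and Adipoq (0.75), for Acaca Sucnr1 (0.80), Pcx (0.80) and Adig (0.78), for Acly Acss2 (0.81), Gpd1 (0.76) and Acacb (0.74), for Me1 Acss2 (0.85), Fabp4 (0.79) and Agpat2 (0.79), and for Scd1 Scara5, A530016L24Rik and Pdgfc (0.73, 0.72 and 0.72). Scd2 (Susd6, Dnajb9 and Cog2; 0.77, 0.76 and 0.76), Srebf1 (Lman2l, Rexo2 and Crocc; 0.86, 0.81 and 0.80) and Fads2 (Cct4, Pcca and Ube2d1; 0.91, 0.91 and 0.90) shared none of these.

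The rest of the pathway was read from fixed lists. At 4 h, beside the members' median of 0.54, the list of acyl chain supply had a median of 0.05 (6 of 11 above 0), elongases and desaturases other than the members -0.05 (8 of 17), NADPH supply -0.03 (3 of 8), regulators of the SREBP, LXR and ChREBP systems -0.19 (4 of 12), LXR targets -0.02 (4 of 8), glycerolipid assembly 0.17 (10 of 15) and cholesterol synthesis -0.04 (8 of 16). At 1.5 h these medians were -0.17, -0.05, 0.05, -0.02, 0.01, -0.17 and -0.06, against -0.36 for the members. No gene of these 7 lists passed at any of the 6 times. Low p values at 4 h belonged to Chpt1, a choline phosphotransferase (0.80, 0.21 to 1.40), and Scd4, a further stearoyl-CoA desaturase (0.59, 0.14 to 1.03), each with adjusted p = 0.672 in limma.

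Across time some pathway genes did pass (limma, adjusted p under 0.05). So did 5.4% of all features between 4 and 18 h in saline and 3.92% after oleic acid. From the early to the late times 2.77% and 4.96% did. The genes named were few among those listed and are not read as a result about the pathway. After oleic acid time and slide cannot be told apart here, and in saline a slide term could not be fitted for late against early. Nr1h3, the nuclear receptor LXR alpha, rose from the early to the late times in saline by 0.50 (limma adjusted p = 0.0397) and after oleic acid by 0.54 (0.00765), where 1.35% and 1.97% of all features rose. Lpin2 and Lpin3, lipins that make diacylglycerol, fell from 4 to 18 h in saline (-1.04 and -0.66, limma adjusted p = 0.0380 and 0.0282) and after oleic acid (-0.99 and -0.66, 0.0196 and 0.0108), where 3.81% and 2.33% of all features fell. Lpin2 also fell by 0.68 from the early to the late times in saline (1.42% of all features fell). Lss, lanosterol synthase, rose by 0.95 from 4 to 18 h in saline (limma adjusted p = 0.0406), where 1.59% of all features rose. Agpat3 fell by 0.69 in the same comparison (limma adjusted p = 0.0467). Aacs, acetoacetyl-CoA synthetase, rose by 0.44 from the early to the late times after oleic acid (limma adjusted p = 0.0230).

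A pair of further lists describes what else differed between 4 and 18 h. Counting genes that passed, of 13 clock genes 8 fell in saline and 8 after oleic acid, where 3.81% and 2.33% of all features fell, among them Per1 (-3.50 and -1.85), and of 12 genes of fasting and glucocorticoid response 7 fell in saline and 8 after oleic acid, among them Pdk4 (-3.10 and -2.90), which restrains glucose oxidation, and Fkbp5 (-3.05 and -3.74). The largest adjusted p among the genes named here was 0.0151, in limma. The hour of day and the feeding of the mice are not given in the labels, and their part in the time differences of the 10 genes was not tested. After oleic acid the 4 h and 18 h arrays also lay on different slides.

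Where a gene had several probes they did not always follow one another. The 3 Me1 probes gave differences of 0.57, 0.55 and 0.63 at 4 h and of -0.36, -0.60 and -0.42 at 1.5 h, and the 2 other probes correlated with the one used at 0.86 and 0.79. Of the 4 Acaca probes the overlapping pair gave 0.51 and 0.41 at 4 h, and the 2 others -0.18 and 0.74; the last of these lay well above background on 16 of 29 arrays. The overlapping pair end as follows (last 30 bases, 5′ to 3′).
Acaca, probe used: tgttgaaataaacctccacatttgtagaag
Acaca, overlapping probe: gttgaaataaacctccacatttgtaaaaaa
The second Acly probe gave -0.33 at 4 h against 0.28 for the probe used, with a correlation of 0.26, so the direction of Acly at 4 h differed between its probes. The second Fads2 probe gave 0.12 against 0.41, with a correlation of 0.19, or -0.17 with group means subtracted. From 4 to 18 h in saline this probe gave 0.24 against 0.94. At 1.5 h all probes of Acaca, Acly and Me1 lay below 0, and the second Fads2 probe lay at 0.09. At 24 h the other Me1 probes and the second Fads2 probe had the opposite sign to the probes used.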

How the data were processed

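Each array read Cy3-labelled cRNA from 1 lung. Per the file headers, the scanner's intensity values came from Agilent Feature Extraction (version 10.5.1.1), background-corrected within the array and not scaled between arrays. The authors' deposited table holds log2 values with a common column median of 6.08; its method is not given in the sources used here, and it served as an alternative. Flags for outlier and background spots are of another kind, 0 or 1, per the file headers.

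From these, log2 of the processed signal minus the array's 75th percentile was computed, spots flagged as outliers were dropped, and spots of a probe were averaged. Probes stayed in if 1 or more of the 12 groups had them well above background on all its arrays. The kept probe with the highest mean stood for its gene. limma 3.58.1 (R 4.3.3) fitted 12 group means on 29 arrays, with Benjamini-Hochberg adjustment over 29310 features and a threshold of 0.05. Correlations used 100000 permutations. The number of arrays limits the precision. The labels give replicate numbers and no further account of how the mice of a group were handled, so p-values measure only the spread between these samples, which may be partly technical.

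The 10 genes and all lists were chosen with earlier results of these data known. Named were the 10 genes, up to 4 genes per list with the smallest p, any listed gene with adjusted p under 0.05, and the 3 genes most like each member. One gene that this rule would name is not reported here. The alternatives were other background, scaling, filter, probe and moderation choices, array weights, slide and replicate terms, and arrays left out. The F test for unequal differences and the counts without 1 array were added after seeing the data. The replicate numbers were checked and did not pair the mice. The fit was tested on simulated data.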

Additional observations from a re-analysis of the deposited data

Results flagged for a closer look

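For 5 of the 10 genes the oleic acid arrays at 4 h all lay above saline while at another time all lay below it. The share of all features that did both was not computed. At 4 h 8.37% of all features lay wholly above saline. Wholly below it lay 1.49% at 1 h, 15.2% at 1.5 h, 17.9% at 3 h, 6.67% at 18 h and 15.2% at 24 h. Fasn differed by 0.64 at 4 h and -0.67 at 1.5 h, a gap of 1.30. Thrsp had a gap of 3.19 between the same times and Elovl6 one of 2.29. For Scd1 the difference at 4 h exceeded that at 1 h by 0.97, that at 1.5 h by 1.07 and that at 24 h by 1.18. For Me1 it exceeded that at 18 h by 0.80 and that at 24 h by 0.71. The other Me1 probes gave differences of 0.07 and 0.05 at 24 h, above 0. In limma's F test that the 6 differences of a gene are unequal, the unadjusted p was 0.0225 for Fasn, 0.0353 for Scd1, 0.0626 for Elovl6, 0.102 for Thrsp and 0.168 for Me1, each with an adjusted p of 1.00. The single gaps between 2 times were not tested. No group had the 4 arrays that a search for outlying arrays needs.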

How the results depend on the processing

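The count of genes of the 10 that passed was 0 in every comparison, and stayed 0 under the planned settings that could be fitted, with these exceptions. With array weights in limma 1 gene passed in each of 4 comparisons: oleic acid late against early (Srebf1, 0.41, adjusted p = 0.0494), oleic acid 18 h against 4 h (Srebf1, 0.67, adjusted p = 0.0436), saline over 6 times (Fads2, adjusted p = 0.0437) and oleic acid over 6 times (Srebf1, adjusted p = 0.0360). The cause was not tested. With 1 array left out the count ran from 0 to 1 for saline 18 h against 4 h (1 without saline 18 h replicate 1) and from 0 to 1 for oleic acid 18 h against 4 h (1 without oleic acid 4 h replicate 1). The replicate block gave 0 genes in every comparison; same-numbered arrays had a mean correlation of deviations of 0.00178 and 13 of 29 arrays correlated best with their own number. A fixed slide term could not be estimated for 11 comparisons. Of 150 differences 77 turned sign under at least 1 setting, but 0 of the 18 whose interval excluded 0. With all 31 arrays the median of the 10 differences at 1.5 h was -0.01 in place of -0.36, and at 3 h -0.69 in place of -0.07. Counts over all features moved by more than 1.5 times in every comparison. Against saline they ran from 0 to 260 around 0 at 1 h, 0 to 22 around 1 at 1.5 h, 0 to 124 around 0 at 3 h, 0 to 29 around 1 at 4 h, 0 to 132 around 7 at 18 h and 0 to 26 around 4 at 24 h. They ran from 0 to 2 around 1 for the mean of 1 to 4 h, 0 to 80 around 5 for 18 and 24 h, 0 to 27 around 0 for the change between these, 0 to 30 around 5 for any time and 0 to 16 around 2 for unequal differences. Over time they ran in saline from 39 to 1037 around 813 (late against early), 24 to 1907 around 1582 (18 against 4 h), 0 to 71 around 3 (24 against 18 h) and 22 to 2510 around 1257 (any time). After oleic acid the same 4 ran from 68 to 3007 around 1454, 40 to 2607 around 1148, 0 to 5 around 3 and 63 to 5772 around 1292.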

Other observations

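The 2 arrays left out for their spike-in slopes had levels far from their groups. On replicate 3 of oleic acid at 1.5 h Acly was at 7.06, Scd1 at 7.26, Scd2 at 6.85 and Thrsp at 3.73, and the spots of Fasn and Fads2 were flagged as outliers. On replicate 2 at 3 h Acly was at 1.44, Scd1 at 2.71, Scd2 at 2.02, Thrsp at 0.46 and Fasn at 0.67. The mean of the fat cell markers was 1.97 on the first and 0.219 on the second.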
